A study of Paralichthys olivaceus with 24 samples.

Results

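Cell death, survival and the clearance of damaged proteins are represented here by 5 genes, casp8, gadd45g, mcl1b, sqstm1 and ubb, in skeletal muscle of the olive flounder Paralichthys olivaceus. The genes were picked by name, and the picking was done with their muscle levels already known. They are 5 of the 11646 genes in the table used, which lists genes whose level was 2-fold or more away from 12 °C in at least 1 of the authors' ratios. In 2 cases the table carries the symbol itself (gadd45g and sqstm1). In the other 3 (casp8, mcl1b and ubb) it carries a numbered gene ID, and RefSeq gives that ID the symbol. Each gene was above 1 RPKM in all 4 libraries. RPKM counts reads relative to the length of the transcript and to all reads mapped in a library, so levels of different genes can be set side by side.

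The fish were 9 months old, had been acclimated to 12 °C, and went through an acute or a chronic warming regime in groups of 15 fish. The 4 libraries used are muscle of the series titled C, 1 each at 12, 18, 23 and 28 °C, and no genotype or drug distinguishes them. The labels do not spell out which regime C stands for. In all there were 120 fish in 8 treatment groups. For the acute regime an interval of 3 h is given. Under the chronic regime, water warmed at 3 °C per h and the final temperature was kept for at least 20 h. The number of fish behind a library is not given in the sources used here, and the labels speak of duplicates while each temperature has 1 column. No value below therefore has an error, and no p-value is given. The other 20 samples (gill, liver and the rest of the muscle) were not analysed here.

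Programmed cell death, or apoptosis, is run by caspases, proteases that cut each other and then the proteins of the cell. Caspase 8 is the caspase that death receptors at the cell surface recruit first, whereas the mitochondrial route is gated by the BCL2 family, whose members either hold the outer mitochondrial membrane closed or open it. Proteins damaged by heat are refolded by chaperones or are marked with chains of ubiquitin and destroyed, either in the proteasome or, as aggregates, in autophagosomes that fuse with lysosomes. Skeletal muscle fibres are long-lived cells with a dense protein scaffold and rely on both disposal routes. These roles are known mainly from mammals and zebrafish.

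All 5 genes had their highest level at 28 °C. Each also lay at least 2-fold above the highest of the other 3 libraries, on the RPKM + 1 scale used for all log2 folds here. That holds for 23.8% of the 4238 genes of the table with a mean of at least 1 RPKM. Since the 5 genes were chosen with these levels in view, nothing is read from the difference. At 18 and at 23 °C 0 of the 5 genes were 2-fold away from 12 °C in either direction. The same was true of 0 of 5 between 18 and 23 °C. For comparison, 7.66% of table genes exceeded 12 °C by 2-fold at 18 °C and 2.68% fell short by as much. At 23 °C these shares were 2.98% and 10.8%, and for 23 against 18 °C they were 0.742% and 9.01%.

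**Figure D1:**
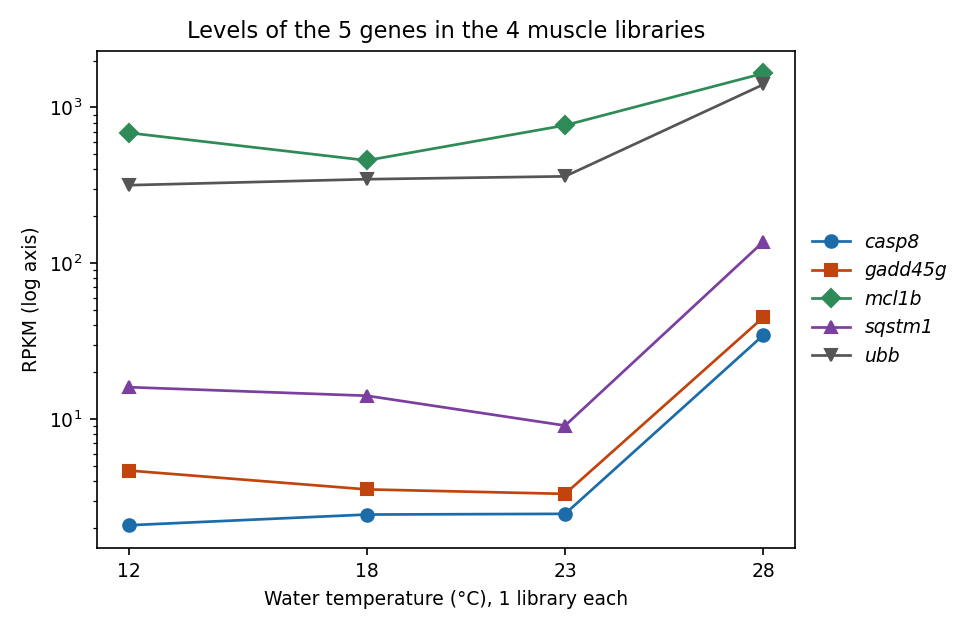
Level of each of the 5 genes (RPKM, log axis) against water temperature (°C), with 1 point for 1 library and lines joining the points of a gene. mcl1b is the highest and casp8 the lowest gene throughout, and each gene is highest at 28 °C, from 34.6 RPKM for casp8 to 1655 RPKM for mcl1b.

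The death-receptor caspase gene casp8 had 2.08, 2.44, 2.46 and 34.6 RPKM as the water went from 12 to 18, 23 and 28 °C. The 3 cooler libraries lay within 1.18-fold of each other and the 28 °C library 14.04-fold above the highest of them. Its log2 fold at 28 °C against 12 °C was 3.53, the largest of the 5, and it moved from rank 2667 in the table at 12 °C to rank 278. Of the 4378 table genes with a mean of 1 RPKM or more over these 2 libraries, 34.2% were 2-fold or more above 12 °C at 28 °C and 22.5% were as far below it.

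The growth arrest gene gadd45g encodes a small protein induced by stress that slows the cell cycle and feeds into p38 and JNK signalling. It was at 4.67, 3.54, 3.31 and 45.03 RPKM at 12, 18, 23 and 28 °C. The middle libraries were thus a little below 12 °C, and the 28 °C library was 9.63-fold above it (log2 fold 3.02). RefSeq places the transcript behind this row in a gene it calls gadd45ga, so the row is 1 of several fish copies of this gene.

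The BCL2 relative mcl1b is the fish form of MCL1, a short-lived protein that holds the pore-forming death proteins in check. Its levels from the coolest to the warmest library were 686.9, 457, 768 and 1655 RPKM. This gene was already among the most abundant of the table in unheated muscle, at rank 7 at 12 °C and rank 12 at 28 °C. It varied more than casp8 among the cooler libraries (1.68-fold from lowest to highest), with its low point at 18 °C, and the 28 °C value was 2.15-fold above the highest of them. Its log2 fold at 28 °C, 1.27, was the smallest of the 5. In the authors' deposited table its ratio to 12 °C was 2.19 at 28 °C, close to the 2-fold limit at which a gene enters that table.

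The receptor gene sqstm1 encodes p62, which binds ubiquitin chains on one side and the growing autophagosome on the other, and so carries marked proteins into autophagy. From 12 to 28 °C it was at 16.02, 14.1, 9.08 and 137.6 RPKM. The 23 °C library was the lowest (log2 fold -0.76 against 12 °C), and the step from 23 to 28 °C, 3.78 on the log2 scale, was the largest of any of the 5 genes. Of all genes with a pair mean of at least 1 RPKM, 35.6% were at least 2-fold higher at 28 than at 23 °C, all 5 genes among them, and 7.89% were lower.

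The polyubiquitin gene ubb encodes head-to-tail copies of ubiquitin that are cut apart after translation, and in vertebrates it supplies extra ubiquitin during heat stress. It was at 317, 346.2, 361.1 and 1405 RPKM in the same order. The cooler libraries lay within 1.14-fold, the narrowest range of the 5 genes in unscaled RPKM. The 28 °C value was 3.89-fold above the highest of them (log2 fold against 12 °C 2.14). The range of ubb was not the narrowest after median scaling. Its log2 folds at 18 and 23 °C were then 0.32 and 0.68, against -0.17 and -0.01 for gadd45g. In RPKM the difference between 28 and 12 °C was 1088 for ubb and 968 for mcl1b, against 121.6 for sqstm1, 40.4 for gadd45g and 32.5 for casp8. The accession on the ubb row is of the class RefSeq uses for non-coding transcripts, although the gene is listed as protein coding, and how reads from its near-identical repeats and from other ubiquitin genes were shared is not stated. RefSeq also names ubc and rps27a in this species, and neither symbol matched a row.

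In order of level, mcl1b was above ubb, sqstm1, gadd45g and casp8 in every library. The ratio between mcl1b and ubb was smallest at 28 °C. No spread is available to say whether neighbours in this order, such as gadd45g and casp8 at 28 °C, differ. The 5 genes are all in cluster 4 of the authors' 7 clusters, which holds 35.5% of the table and was made from the same values. Over their folds at 18, 23 and 28 °C, gadd45g and sqstm1 were the most alike pair (root mean square difference 0.23 on the log2 scale), and casp8 and mcl1b the least alike (1.38).

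By the same measure, 1616 other genes with a symbol, a maximum of at least 5 RPKM and no value at 0 were compared with each of the 5. The nearest to ubb was pgpep1, a pyroglutamyl peptidase gene, at 1.50, 1.73, 1.87 and 9.90 RPKM from 12 to 28 °C (difference 0.014), followed by mfsd13a and sdhaf1. The nearest to casp8 was lmod3, a leiomodin gene whose protein nucleates actin filaments in muscle, at 18.3, 21.9, 19.9 and 241.7 RPKM (0.093), followed by faxca and pfkfb3. The nearest to gadd45g was ctu1, which encodes a tRNA-modifying enzyme (0.053), then tubgcp5 and the hormone-sensitive lipase gene lipe. For sqstm1 lipe came first, at 2.37, 2.07, 1.36 and 27.3 RPKM (0.14), followed by kctd5b and ctu1. The genes nearest to mcl1b were rhbdd1, cpox and bloc1s5, at differences of 0.15 to 0.17. These likenesses rest on 3 folds that share the 12 °C library. They were measured on the RPKM + 1 scale, which understates differences of low genes, so genes called near can differ in their RPKM ratios. From 12 to 28 °C, for example, faxca went from 0.158 to 11.4 RPKM and casp8 from 2.08 to 34.6 RPKM.

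Other death-receptor and caspase genes were mostly low in these libraries. Of 14 listed genes with a row, 6 reached a pair mean of 1 RPKM at 28 °C. Of these, casp8, picked with its levels known, and birc2 passed 2-fold upwards and 1 passed it downwards. These shares, 33.3% and 16.7%, were near the table's 34.2% and 22.5% on this scale. The number higher was 4 with a pseudocount of 0.1, median scaling or the authors' ratios. In that order 1926, 1858 and 1907 table genes were higher, against 1497 on this scale. Of the 6 genes, 4 had 1 RPKM or more at 12 °C, and casp6 and ripk3 met the minimum only through 28 °C. The ubiquitin ligase gene birc2, whose protein cIAP1 restrains caspase 8 at the tumour necrosis factor receptor, had 6.92, 5.38, 4.76 and 42.3 RPKM from 12 to 28 °C. The lower gene was tnfrsf21, a death receptor, at 11.9 and 2.61 RPKM at 12 and 28 °C. The caspase genes casp6, casp10 and casp2 had 0.376, 0.403 and 0.50 RPKM at 12 °C, and 1.68, 1.18 and 0.271 RPKM at 28 °C. The necroptosis kinase gene ripk3 was at 0.816 and 2.37 RPKM. The median log2 fold over the 14 rows was 0.30, against 0.02 over the table.

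The BCL2 family had 14 rows of 21 matches among RefSeq genes. At 28 °C, 10 met the minimum, of which 7 (70.0%) were 2-fold or more higher and 0 lower, against 34.2% and 22.5% of the table. The median over the 14 rows was 1.07 on the log2 scale. Of the 10 genes, 8 had 1 RPKM or more at 12 °C. The others, bcl2l14 and bcl2l12, met the minimum only through their 28 °C level. Counted in the 7 are bcl2l14 and also mcl1b, which was picked with its levels known. The 4 pro-survival relatives with a row were among the 7 (roles assigned from general knowledge after the values were seen). Besides mcl1b these were bcl2l10 at 1.66 and 8.22 RPKM at 12 and 28 °C, bcl2b at 1.92 and 8.46 RPKM, and bcl2l1, the gene of BCL-XL, at 2.48 and 7.89 RPKM. Among these 4 rows mcl1b made up nearly all of the summed level, which was 693 RPKM at 12 °C and 1680 RPKM at 28 °C. Family genes without a row are not in this sum, so it is not the pro-survival total of the muscle.

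Genes on the death-promoting side of the family did not share one direction. The pore-forming effector gene bax was at 3.03 and 9.02 RPKM at 12 and 28 °C (log2 fold 1.31), and the mitophagy receptor gene bnip3 at 21.2 and 65.5 RPKM. The BH3-only genes bmf and bad, whose products bind and block pro-survival relatives, had 3.03 and 3.89 RPKM in the coolest and 1.15 and 1.97 RPKM in the warmest library, with log2 folds of -0.90 and -0.72 that do not reach 2-fold on this scale. The ratios in the authors' deposited table, which have no pseudocount and carry a constant factor of 0.91 at 28 °C, put both at least 2-fold lower. Rows below the minimum went other ways within these classes. The BH3-only gene bcl2l11 was at 0.103 and 1.01 RPKM at 12 and 28 °C. The effector genes bok and bokb had 0.589 and 0.148 RPKM in the coolest library and 0.226 and 0.128 RPKM in the warmest. The largest log2 fold of the family, 3.53, was that of bcl2l14, with 0.763, 0.691, 0.495 and 19.4 RPKM from 12 to 28 °C.

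**Figure D2:**
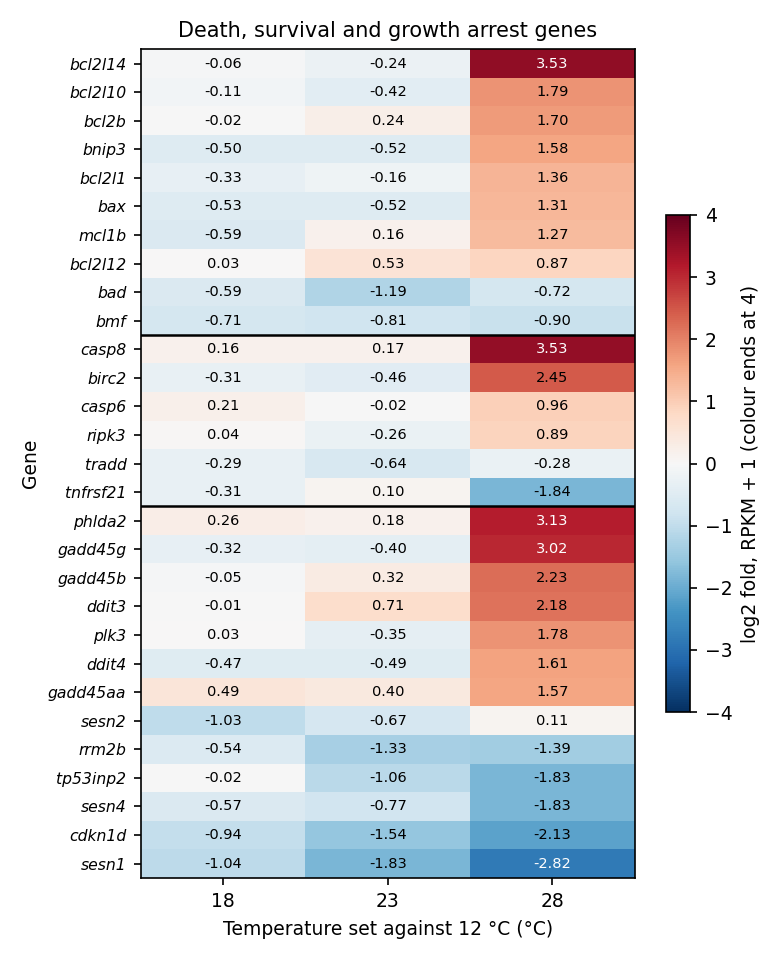
Log2 fold (RPKM + 1) against 12 °C at 18, 23 and 28 °C for genes with a pair mean of at least 1 RPKM, as colour and number, with the BCL2 family on top, caspases and death receptor signalling in the middle and growth arrest and p53 genes at the bottom, each gene shown once. At 28 °C casp8, bcl2l14, phlda2 and gadd45g are above 3 and sesn1 is at -2.82, which is reached in steps through 18 and 23 °C.

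The growth arrest and p53 list divided into a higher and a lower part at 28 °C. All 13 genes with a sufficient pair mean also had 1 RPKM or more at 12 °C. Of them 7 (53.8%) were higher by 2-fold or more and 5 (38.5%) lower, against 34.2% and 22.5% of the table. Counted in the 7 is gadd45g, which was picked with its levels known. The other copies of the GADD45 family with a row were higher too, gadd45b at 4.47 and 24.7 RPKM and gadd45aa at 1.49 and 6.38 RPKM at 12 and 28 °C. The gene phlda2, whose mammalian counterpart is imprinted, was at 3.50 and 38.5 RPKM. The gene ddit3, which encodes the stress transcription factor CHOP, was at 6.01 and 30.8 RPKM. In contrast the sestrin genes sesn1 and sesn4, whose proteins restrain growth signalling through mTORC1, had 52.7 and 68.9 RPKM in the coolest library and 6.62 and 18.7 RPKM in the warmest, while sesn2 was at 4.08, 1.49, 2.18 and 4.48 RPKM. The growth-restraining genes did not share this direction, as ddit4 of the same list was at 10.6 and 34.4 RPKM at 12 and 28 °C (log2 fold 1.61). The cyclin kinase inhibitor gene cdkn1d was at 14.04, 6.82, 4.19 and 2.44 RPKM. In unscaled RPKM sesn1, cdkn1d and sesn4 were lower at every step, which was not counted over the table. From 18 to 23 °C the log2 fold of sesn4 was -0.20. The median offset of these 2 libraries from 12 °C was -0.19 and -0.49. This offset is a difference of medians over genes with a mean of at least 1 RPKM and no value at 0. Each gene was first centred on its own log2 mean, without a pseudocount, so the offset is not on the RPKM + 1 scale. The median log2 fold at 28 °C over the 20 rows of the list was 0.05.

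Around ubb, genes for ubiquitin-like proteins and for the enzymes that load them also differed in direction. At 28 °C 4 of 12 genes (33.3%) were higher by 2-fold or more and 2 (16.7%) lower, close to the table's 34.2% and 22.5%. Counted in the 4 is ubb, which was picked with its levels known. The higher ones besides ubb were uba3, of the enzyme that activates NEDD8, at 3.26 and 27.5 RPKM, ube2g1 at 3.95 and 16.1 RPKM, and sumo2 at 5.63 and 17.5 RPKM. The ubiquitin-conjugating enzyme genes ube2d4 and ube2kb were lower, with 17.5 and 27.6 RPKM in the coolest and 3.85 and 12.2 RPKM in the warmest library. The other 6 genes were also below their 12 °C level by less than 2-fold, and with the ratios of the authors' deposited table the lower count became 7 of 12. The median over the 14 rows was -0.57.

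The proteasome list, which also holds regulator and partner genes, is thin, with 6 rows against 58 RefSeq matches. Of the 6 rows 3 were higher by 2-fold or more at 28 °C and 0 lower, against 34.2% and 22.5% of the table. The transcription factor gene nfe2l1, whose product drives proteasome subunit genes when the proteasome is overloaded, had 5.39, 6.11, 9.53 and 40.7 RPKM from 12 to 28 °C. The stress-induced proteasome partner gene zfand2a was at 4.47 and 27.7 RPKM, and psmd4a, a subunit gene whose product captures ubiquitin chains, at 28.9 and 100.7 RPKM at 12 and 28 °C. The subunit gene psmd6 and the activator gene psme4 had 47.1 and 26.1 RPKM in the coolest library and 26.1 and 12.9 RPKM in the warmest. The subunit gene psmd8 was at 12.7 and 13.2 RPKM at 12 and 28 °C. Among the subunit and activator rows psmd4a alone was 2-fold or more higher, so the count of 3 does not describe the proteasome itself. With 8 rows, the list for degradation from the endoplasmic reticulum had 4 of 7 genes (57.1%) higher and 1 (14.3%) lower, beside the same shares of the table. The unfolded protein response factor gene xbp1 was at 14.4 and 61.3 RPKM and herpud1, an organiser of the export complex, at 1.99 and 8.69 RPKM, while the ligase gene amfr was at 25.2 and 7.67 RPKM.

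**Figure D3:**
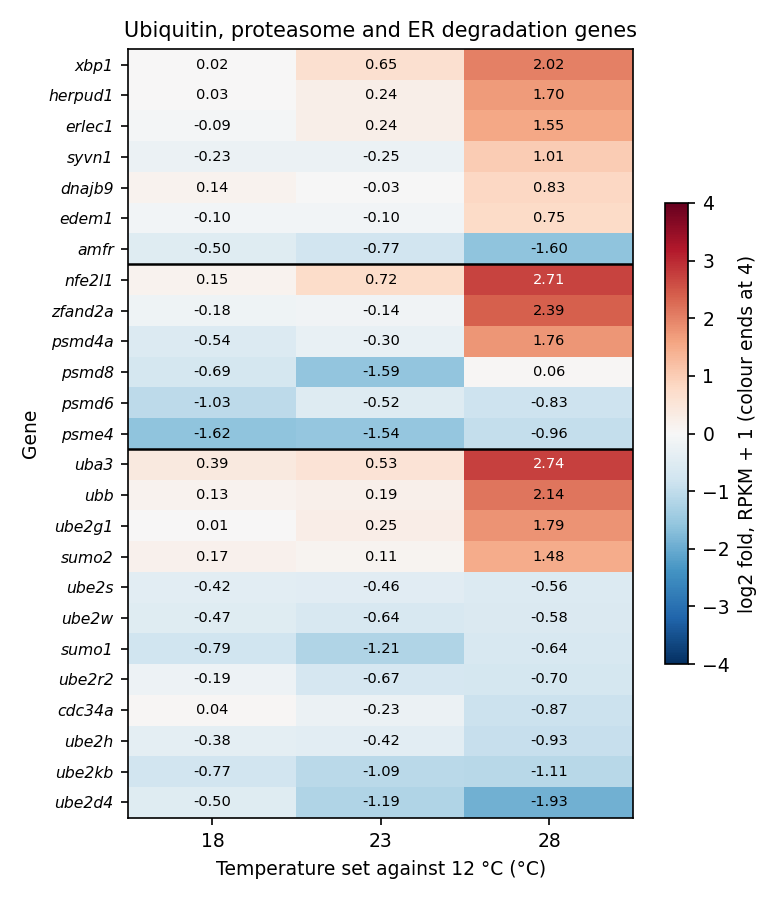
Log2 fold (RPKM + 1) against 12 °C at 18, 23 and 28 °C for genes with a pair mean of at least 1 RPKM, with degradation from the endoplasmic reticulum on top, the proteasome list in the middle and ubiquitin with its enzymes at the bottom. At 28 °C ubb stands at 2.14 beside uba3 at 2.74, and the rows from ube2s down to ube2d4 lie between -0.56 and -1.93.

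In the autophagy list, sqstm1 lay apart from most of its neighbours. Of 30 rows, 26 met the minimum at 28 °C, with 7 (26.9%) higher by 2-fold or more and 11 (42.3%) lower, against 34.2% and 22.5% of the table. These numbers were 8 and 8 with median scaling and 8 and 17 with the ratios of the authors' deposited table. Counted in the 7 is sqstm1, which was picked with its levels known. The median over the 30 rows was -0.77. The higher genes were led by the genes of chaperones that hand clients to p62. The cochaperone gene bag3 was at 20.9, 13.4, 11.5 and 1241 RPKM from 12 to 28 °C (log2 fold 5.83), and its small heat shock protein partner hspb8 at 73.9, 52.4, 61.2 and 815.4 RPKM (3.45). The lysosomal membrane gene lamp1b followed sqstm1 closely in size, at 16.4 and 138.5 RPKM at 12 and 28 °C. Its relative lamp2 went the other way, at 35.6, 30.6, 22.3 and 18.4 RPKM from 12 to 28 °C (log2 fold -0.92). The antioxidant factor gene nfe2l2, whose product is released when p62 binds its inhibitor, was at 2.60 and 7.58 RPKM.

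Genes acting when an autophagosome begins and its membrane grows were lower. They numbered 9 rows (ulk1, ulk2, atg13, atg9a, atg9b, atg2a, wipi1, wipi2 and becn1, a grouping made after the values were seen), and all 9 were below 12 °C at 28 °C, with log2 folds from -2.34 to -0.57. Of the 8 with a sufficient pair mean 6 were 2-fold or more lower, against 22.5% of the table. Since the genes were grouped with these values in view, nothing is read from that difference. Over rows of any level, 5209 of 11646 were below 12 °C. That is not a like comparison, since the median offset of the 28 °C library was itself -0.32. In unscaled RPKM 7 of the 9 were lower at each step of warming, a count not made over the table or under the alternatives. The median offset from 12 °C also went down over the first steps, to -0.19 at 18 °C and -0.49 at 23 °C. Nothing particular to these genes is therefore read from the stepwise count. All 9 stayed below 12 °C with median scaling, with the ratios of the authors' deposited table and with a pseudocount of 0.1. The number at least 2-fold lower was then 4, 8 and 7. In the same order 661, 1935 and 1538 genes of the table were as far below, against 984 on the scale used here. The genes atg9b and atg9a, whose proteins sit in the vesicles that seed the membrane, had 37.5 and 15.97 RPKM in the coolest library and 6.61 and 3.63 RPKM in the warmest. Summed over the 9 rows the level was 118.4 RPKM at 12 °C and 36.8 RPKM at 28 °C. Genes for the conjugation of LC3 went both ways, with atg5 at 1.84 and 5.83 RPKM and atg4d at 6.38 and 3.12 RPKM.

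**Figure D4:**
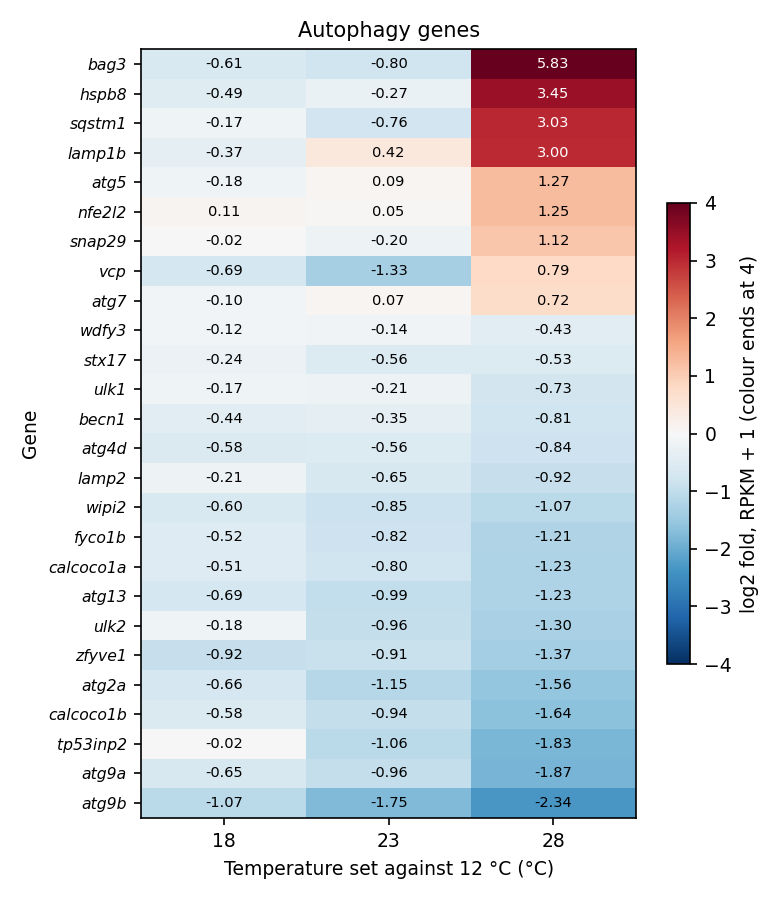
Log2 fold (RPKM + 1) against 12 °C at 18, 23 and 28 °C for the 26 autophagy genes with a pair mean of at least 1 RPKM, ordered by their value at 28 °C. sqstm1 sits at 3.03 below bag3 and hspb8, and atg9b at the foot is at -2.34.

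Markers of other tissues had different summed levels in the 4 libraries. Summed over 31 liver marker rows, the level was 61.04, 5325, 70.7 and 514.3 RPKM from 12 to 28 °C, all 31 being above 0 in each library, and over 6 exocrine pancreas rows it was 10.5, 178, 15.1 and 42 RPKM. At 18 °C, where these sums were highest, the 5 genes had log2 folds between -0.59 and 0.16. At 28 °C, where the sums were also above 12 °C, the folds were between 1.27 and 3.53. The part of liver and pancreas tissue in the levels of the 5 genes was not tested. Over 12 leukocyte rows the sum was 29.4, 15.2, 13.3 and 63.5 RPKM. At 28 °C 4 of 9 leukocyte genes with a sufficient pair mean were 2-fold or more higher and 0 lower (44.4% and 0%, against 34.2% and 22.5% of the table). Of these 9, 7 had 1 RPKM or more at 12 °C. The gene ccr7, 1 of the 4, met the minimum only through 28 °C, with 0.311 and 3.26 RPKM at 12 and 28 °C. The largest fold was that of cxcr4 at 1.48 and 13.4 RPKM, whereas the T cell gene cd3e was at 0.245 and 0.563 RPKM. The part of leukocytes in the levels of casp8 and the other genes was not tested. In bulk tissue, a changed number of cells and a changed amount of RNA per cell cannot be told apart. Fast muscle markers had 7 rows, of which 1 was 2-fold or more higher at 28 °C and 1 lower. The most abundant, mylpf, was at 25770 and 20633 RPKM at 12 and 28 °C, while the lower gene pvalb1 was at 6441 and 2336 RPKM and the higher gene acta1a at 66.9 and 308.9 RPKM. The gene mylpf is listed at 0 at 18 °C, as is atp2a1l at 23 °C, which lowers the muscle sums there.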

How the data were processed

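The authors deposited RPKM values of 4 muscle libraries, as the column headers say. The submitters' processing notes list TopHat2 and Cufflinks with no version, and the genome build is not given in the sources used here. In each of the 11646 rows some ratio of the authors reaches 2-fold, so shares of the table are not shares of the transcriptome. The authors' deposited ratios are natural log values, although headed log2: 11635, 11641 and 11633 rows at 18, 23 and 28 °C equal the natural log RPKM ratio plus a constant (within 1e-05). Absolute depth is unknown. Steps among low values gave depths of 1.004, 0.982 and 1.013 relative to 12 °C.

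Computed here (Python 3.11.15, pandas 2.3.3) were log2 folds of RPKM + 1 against 12 °C, a scale that understates differences of low genes, and counts of genes past 2-fold among those with a pair mean of at least 1 RPKM. The counting code was checked on values changed by a known factor without noise, which does not show how counts vary between libraries. The depth estimate was tested on simulated counts. Of 7526 numbered IDs, 2788 took a symbol from RefSeq (ASM2471397v2, names alone). Members and lists were chosen with earlier results of these data known. Named are the 5 members, up to 2 genes in each direction per list at 28 °C, and the 3 genes nearest to each member. Other names (such as bax, lamp1b, ddit3, sesn4 and the leukocyte genes) were chosen after their values were seen. Promoter motifs and sequences were not analysed here. Some genes of the ubiquitin list are not reported here and were left out of its counts. Alternatives were a pseudocount of 0.1, scaling by median ratios, the authors' ratios, no minimum and a minimum of 5 RPKM.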

Additional observations from a re-analysis of the deposited data

How the results depend on the processing

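All 5 genes stayed at least 2-fold higher at 28 than at 12 °C, and 0 of 5 passed 2-fold at 18 or 23 °C, under each of the 5 alternatives. Over the main scale and the alternatives that change a fold, the log2 fold at 28 °C ranged from 3.53 to 3.99 for casp8. The range was 3.02 to 3.33 for gadd45g, 1.13 to 1.58 for mcl1b, 2.97 to 3.34 for sqstm1 and 2.01 to 2.46 for ubb. The median offset from 12 °C was -0.19, -0.49 and -0.32 (log2) at 18, 23 and 28 °C, and median scaling removes this. The 2-fold distance of 28 °C from the highest cooler library did not hold for mcl1b under every alternative. With median scaling its log2 folds against 12 °C were 0.65 at 23 °C and 1.58 at 28 °C. With the authors' ratios it was 1.42 and 2.19 times its 12 °C level at these temperatures.

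Other counts moved by over 1.5 times, and the cause was not tested. In the table, the lower genes at 18 °C numbered 110, but 264 with a pseudocount of 0.1, 69 with median scaling, 400 with the authors' ratios and 72 with a minimum of 5 RPKM, which left 152 higher. At 23 °C the higher genes numbered 113, but 210, 324, 489 and 64 in that order of settings, and the lower 408, but 754, 148 and 228 with a pseudocount of 0.1, median scaling and a minimum of 5 RPKM. At 28 °C the lower genes numbered 984, but 1538, 1935 and 530 with a pseudocount of 0.1, the authors' ratios and a minimum of 5 RPKM, which left 795 higher. The split of higher and lower genes at 28 °C was 1497 and 984, 1858 and 661 with median scaling and 1907 and 1935 with the authors' ratios.

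In the lists at 28 °C, 4 caspase and death receptor genes were higher with a pseudocount of 0.1, median scaling or the authors' ratios (2 as reported). BCL2 genes lower numbered 1 with a pseudocount of 0.1 and 2 with the authors' ratios, and proteasome genes 1 in each of these. With the authors' ratios, 7 ubiquitin and 17 autophagy genes were lower (2 and 11 as reported). With median scaling 1 ubiquitin gene was lower, and autophagy had 8 higher and 8 lower.

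At 18 °C, BCL2 had 1 lower gene with a pseudocount of 0.1 or the authors' ratios, autophagy 2 and 3 with these and 0 with median scaling, and ubiquitin 1 with the authors' ratios. Growth arrest had 0 lower with median scaling and 1 with a minimum of 5 RPKM, which left 0 caspase genes higher, and the proteasome 1 lower with median scaling.

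At 23 °C, lower BCL2 genes numbered 2 with a pseudocount of 0.1 and 0 with median scaling or a minimum of 5 RPKM. Lower autophagy genes numbered 10 with a pseudocount of 0.1 and 1 with median scaling, and lower ubiquitin genes 0 with median scaling and 1 with the authors' ratios, which put 1 ubiquitin gene higher. Growth arrest had 2 higher and 2 lower with median scaling, and 1 higher with the authors' ratios or no minimum. The proteasome and the endoplasmic reticulum list each had 1 higher with median scaling or the authors' ratios. No paired analysis was possible because each temperature has 1 library. Leaving out a replicate was likewise not possible, and the unknown depth allows no counting interval.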
